A study of Rattus norvegicus with 42 samples.

Results

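The liver breaks down serine, histidine, tryptophan and phenylalanine through the products of 9 genes described here: Sds, Sdsl, Hal, Uroc1, Ftcd, Tdo2, Kmo, Kynu and Hpd. They were chosen by gene name, with earlier results of these data known, and are 9 of the 22929 genes with RNA counts. Counts of members set beside shares of all genes are therefore a description. Together they hold 19 of the 60999 intragenic regions in which serine 2 phosphorylated RNA polymerase II (pSer2 Pol2) was measured. Of the 3981 glucocorticoid receptor (GR) regions, 15 had their centre within 50 kb of the transcription start site (TSS) of a member. The samples were livers of adrenalectomised male Sprague Dawley rats that received an intravenous infusion for 3 h, given as 20 min pulses every 60 min (PULS) or without interruption (constant, CONS). The infusion held corticosterone (CORT) or its cyclodextrin vehicle (VEH), and CORT was dose matched between the patterns. All rats, vehicle groups included, had been given dexamethasone after surgery and a low dose of corticosterone in the drinking water, which was withdrawn before infusion. ChIP-Seq of GR and of pSer2 Pol2 used 5 groups of 2 libraries each: pulsatile CORT at the third pulse peak (PEAK_140, 140 min) and nadir (NADIR_180, 180 min), constant CORT at the same times (CONS_140 and CONS_180), and pulsatile vehicle (VEH, 1 library at 140 min and 1 at 180 min). Each ChIP library pooled 6 rats. RNA-Seq was done at 180 min in 4 groups of 3 (PULS CORT, PULS VEH, CONS CORT and CONS VEH). None of the samples was RNA at 140 min or ChIP-Seq of constant vehicle, so constant CORT in ChIP-Seq was compared with pulsatile vehicle.

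Hepatocytes use surplus amino acids as a source of glucose, ketone bodies and one-carbon units, and glucocorticoids are known to raise several of the enzymes involved. Sds (serine dehydratase) turns serine into pyruvate and ammonia, and Sdsl is its relative. Hal, Uroc1 and Ftcd are enzymes of the histidine route: Hal removes ammonia from histidine to give urocanate, Uroc1 (urocanase) hydrates urocanate, and Ftcd passes the remaining formimino group to folate. Tdo2 (tryptophan 2,3-dioxygenase) opens the ring of tryptophan as the entry step of the kynurenine route, and is a classical glucocorticoid-induced liver enzyme. Kmo and Kynu act further down that route. Hpd converts the keto acid made from tyrosine, which itself is made from phenylalanine. GR is a transcription factor that binds DNA when it carries hormone, and pSer2 Pol2 is the form of the polymerase found on gene bodies during elongation.

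Assigned RNA reads numbered 3956379 to 7777219 per library, and the total tags given in the file headers numbered 2051977 to 6715803 per GR library and 4938473 to 9326927 per pSer2 Pol2 library. The summed level of 8 hepatocyte markers was 138550 to 192460 CPM (reads scaled to library size) over the 12 RNA libraries, with none of them at 0. The summed level of 5 stellate cell markers was 164.6 to 210.2 CPM in the CORT libraries and 227 to 282 CPM in the vehicle libraries, and its part in the results below was not tested. Most of that sum was Reln, at 120.2 to 157 CPM in the CORT libraries and 178 to 229 CPM in the vehicle libraries. None of the 5 markers was called lower in either response, and Dcn rose with CONS (1.16, edgeR adjusted p = 0.0359). Reln was lower with PULS (-0.54 ± 0.12, edgeR adjusted p = 0.0172), which was under 1.5-fold and so was not called. In these bulk samples fewer cells of a type and less RNA per cell cannot be told apart. The 3 RNA libraries of CONS VEH differed more among themselves (chi-square per degree of freedom of 14.5 to 27.1 for their 3 pairs) than the libraries of the other groups did (5.13 to 9.91). Among them replicate 2 had the lowest share of reads on Alb (7.07%) and the highest summed level of 6 Kupffer cell and macrophage markers (558 CPM, against 310 CPM in the lowest of the 3), whose part in the results was not tested. The GR library NADIR_180 replicate 2 (median log2 value -0.48, near the -0.65 and -0.86 of VEH) and the pSer2 Pol2 library CONS_140 replicate 1 (median 2.84 against 2.36 to 2.56 in the others) stood apart from the other libraries of their groups.

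A gene or region was called changed at a Benjamini-Hochberg adjusted p below 0.05 together with a change of more than 1.5-fold, using edgeR's quasi-likelihood test for RNA and limma for ChIP-Seq. In RNA, Sds and Tdo2 rose with both infusion patterns, Kmo fell with CONS, and the other 6 members passed the test in neither response. This made 2 of 9 members called with PULS, where 4.23% of the 14092 genes tested were called, and 3 of 9 with CONS, where 9.2% were called. The difference between the responses (CONS minus PULS) was called for 0 members and 0.0284% of genes, with 2 members and 1749 genes at an unadjusted edgeR p under 0.05. CONS CORT against PULS CORT was called for 0 members and 0.887% of genes, with 3 members and 1548 genes under that unadjusted p. CONS VEH against PULS VEH was called for 0 members and 0% of genes, with 6 members and 1286 genes under that unadjusted p. In this last comparison all 9 members had higher means in CONS VEH, by log2 0.18 to 0.59 with a median of 0.39, against a median of -0.01 over all genes. The count by DESeq2 was 1 in the first of these 3 comparisons (Uroc1), 0 in the second and 1 in the third (Hpd).

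**Figure D1:**
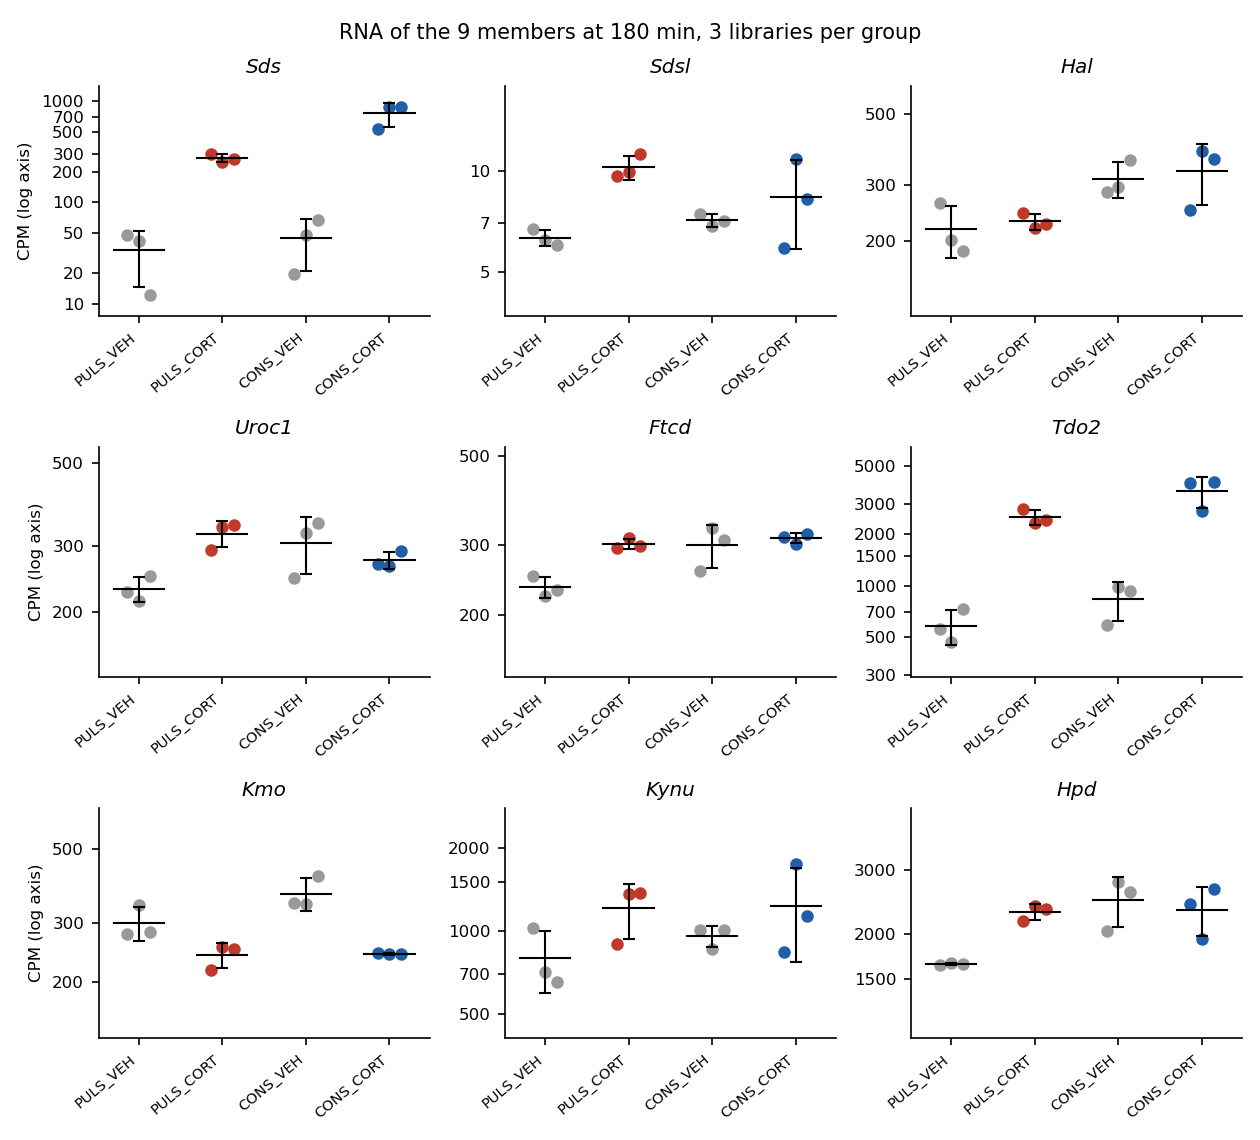
RNA level (CPM, log axis) of each of the 9 members in the 12 libraries at 180 min. Points are libraries, lines are means and bars are SD (n = 3). Sds and Tdo2 stand higher in every CORT library than in any vehicle library, with Sds between 254 and 887 CPM against 12.03 to 66.4 CPM, and the 3 CONS CORT libraries of Kmo lie close to 242 CPM.

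For pSer2 Pol2, 4 of 9 members were called at PEAK_140 against VEH, 2 in each direction: Sds and Tdo2 rose, and Hal and Kmo fell. Of the 16568 genes tested, 1.01% had a region called in this comparison. At NADIR_180 against VEH, 0 members and 0.00604% of genes were called (2 members, and 555 of 38315 regions, under an unadjusted limma p of 0.05). Sds and Tdo2 rose at CONS_140 (2 of 9 members, 0.821% of genes) and at CONS_180 (2 of 9 members, 0.235% of genes). Between PEAK_140 and NADIR_180, 3 of 9 members were called (Sds, Tdo2 and Hal) beside 0.507% of genes. CONS_140 against CONS_180 gave 0 members and 0% of genes (1 member and 1134 regions under an unadjusted limma p of 0.05). PEAK_140 against CONS_140 gave 0 members and 0.0302% of genes, with 4 members and 3336 regions under that p, and CONS_180 against NADIR_180 gave 0 members and 0.175% of genes, with 5 members and 876 regions under that p. The change with time under PULS differed from that under CONS for 1 member, Hal, and for 0.0664% of genes.

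Same-numbered pSer2 Pol2 libraries of the CORT groups deviated from their group means in a like way, although no label states a pairing. The comparisons among CORT groups were therefore also fitted with the replicate number as a block. With the block, PEAK_140 against CONS_140 gave 1 member (Hal) and 747 regions in place of 10, CONS_180 against NADIR_180 gave 1 (Sds), and the time by pattern difference gave 2 (Hal and Sds). The pSer2 Pol2 calls drew on the spread of all 10 libraries. When only the 4 libraries of the groups compared were fitted, no member was called at PEAK_140, CONS_140 or CONS_180 against VEH or at PEAK_140 against NADIR_180, and without VEH replicate 2 no member was called against VEH.

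**Figure D2:**
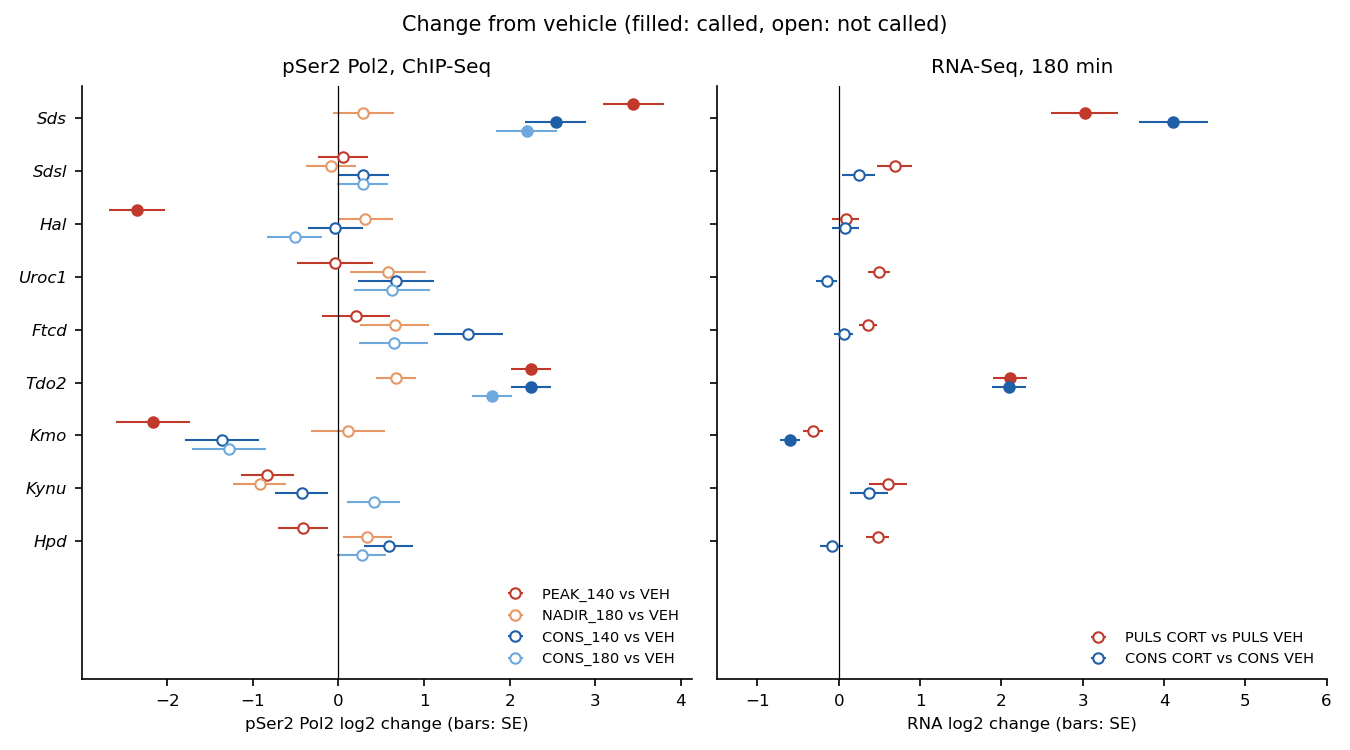
Change from vehicle of the 9 members on a log2 scale, for pSer2 Pol2 at 4 time and pattern groups (left) and for RNA at 180 min (right). Points are fitted changes, bars are SE, filled points were called and open points were not. Sds and Tdo2 were called above VEH at PEAK_140, CONS_140 and CONS_180, and their values at NADIR_180 (0.29 and 0.68) were not called, while Hal (-2.35) and Kmo (-2.16) lie below 0 at PEAK_140.

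GR was higher than in VEH at many of the 15 regions in PEAK_140 and in both CONS groups, in a share no higher than that of all GR regions. In the lists of peaks called per group, 14 of the 15 regions were peaks at PEAK_140, 10 at CONS_180, 6 at CONS_140, and 0 at NADIR_180 or in VEH. Since regions entered the table as peaks of CORT groups, comparisons with VEH or NADIR_180 are not independent of that choice. The same holds for the time by pattern difference, which uses NADIR_180. The counts and p-values of these comparisons here are a description. Against VEH, 10 of 15 regions were called at PEAK_140 (80.5% of all GR regions), 7 at CONS_140 (65.1%), 10 at CONS_180 (68.2%) and 0 at NADIR_180 (7.79%, with 1 of the 15 and 670 of all 3981 regions under an unadjusted limma p of 0.05). The median changes were log2 4.27, 3.70, 3.28 and 1.55 in that order, against 4.17, 3.38, 3.46 and 0.84 over all regions. PEAK_140 exceeded NADIR_180 at 8 regions (69.3% of all regions) and CONS_180 exceeded NADIR_180 at 7 (49.6%). PEAK_140 against CONS_140 called 0 of the 15 (0.0502% of all regions, 2 of the 15 and 560 of all regions under an unadjusted limma p of 0.05). Those 2 regions were peaks at PEAK_140 and not at CONS_140, so this comparison too is not independent of how regions entered the table. CONS_140 against CONS_180 called 0 of the 15 and 0% of all regions (194 regions, none of the 15, under that p). The change with time differed between the patterns at 4 regions (44% of all regions). In each of these comparisons the share of the 15 regions that was called did not exceed the share of all GR regions.

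**Figure D3:**
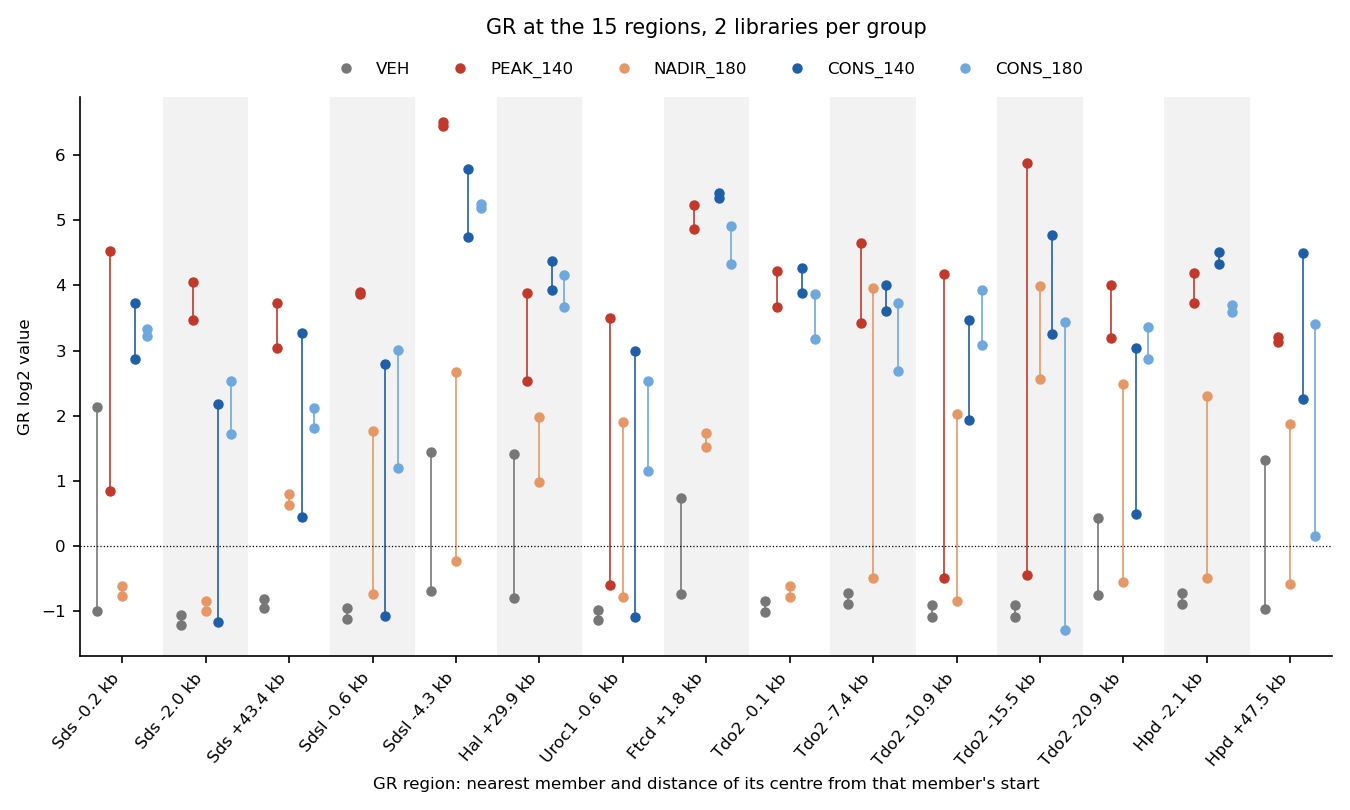
GR log2 value at the 15 regions within 50 kb of a member, each named by its nearest member and the distance of its centre from that TSS in kb (minus is upstream). Points are libraries, 2 per group joined by a line, and the dotted line is a log2 value of 0. VEH lies lowest at most regions, the intergenic region between Sds and Sdsl reaches 6.50 in PEAK_140, and some CORT groups have 1 library below 0.

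Kmo and Kynu had no GR region within 50 kb. Sds had 5, Tdo2 5, Hpd 2, and Hal, Uroc1 and Ftcd 1 each, while the 4 of Sdsl are shared with Sds, whose TSS lies 9253 b away. The regions just inside and outside the 50 kb limit were those at 47.5 kb from Hpd (PEAK_140 3.13 and 3.21) and at 52.0 kb upstream of Tdo2 (PEAK_140 6.30 and 6.16).

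Promoter sequence was matched by symbol in RefSeq (assembly GRCr8) for 6 members: Uroc1, Ftcd, Tdo2, Kmo, Kynu and Hpd. The 250 b upstream of the start are shown for Tdo2, over whose TSS a GR region lies, and for Kmo, which has no GR region and fell in RNA. Tdo2 is read from GRCr8 chr2:169585587-169585836 on the minus strand, and Kmo from GRCr8 chr13:90089271-90089520 on the plus strand. Capitals mark ACANNNTGT, the core letters of the palindrome that GR binds.
Tdo2: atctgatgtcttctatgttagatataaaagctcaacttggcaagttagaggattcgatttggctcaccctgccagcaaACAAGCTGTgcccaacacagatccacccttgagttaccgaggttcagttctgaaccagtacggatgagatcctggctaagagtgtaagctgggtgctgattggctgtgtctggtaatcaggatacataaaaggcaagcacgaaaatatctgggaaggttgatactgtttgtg
Kmo: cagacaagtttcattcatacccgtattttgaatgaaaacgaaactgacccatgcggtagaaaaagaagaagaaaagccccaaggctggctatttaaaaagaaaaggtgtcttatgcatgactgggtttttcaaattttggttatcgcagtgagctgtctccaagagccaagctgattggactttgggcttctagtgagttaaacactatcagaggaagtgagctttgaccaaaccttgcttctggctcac

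Each of the 6 promoters, 250 b before to 50 b after the start, was searched on both strands for ACANNNTGT, for the half-site TGTTCT, for the C/EBP palindrome TTGCNNAA and for TATAAA. ACANNNTGT lay in the Tdo2 promoter at -172 and in none of the other 5, and in 6.6% of 27457 rat promoters. The half-site lay, read on the opposite strand, in the Ftcd promoter at -133 and in 20.1% of promoters. The C/EBP palindrome lay in the Kynu promoter at -181 and in 10.5% of promoters. TATAAA lay in the Ftcd promoter at -64, in the Tdo2 promoter at -228, and in 14.3% of promoters. No 2 matches overlapped. A match is a description of letters and not of binding.

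The authors' motif matches at the GR regions add the following 12 b sequences, given on the plus strand of rn6, all letters in capitals because all belong to the match. They come from a shortened copy of the motif list, and are shown because they match the GR response element (GRE) or the androgen receptor half-site, a sequence GR can also bind.
Ftcd, exon 3, GRE: GGTACATTCAGT
Ftcd, exon 3, GRE, overlapping the first: ACATTCAGTTCC
Sds, 43.4 kb downstream, GRE: ACAGCCAGTTCC
Sds, 2.02 kb upstream, half-site: TGTTCCTTGGAT
Sds, 2.02 kb upstream, a further half-site: TTTTCCTGACTT
Sds, 4.92 kb upstream, half-site: GTGTCAGGGACA
Hal, 29.9 kb downstream, half-site: TGTTCCTTGCTT
Tdo2, 15.5 kb upstream, GRE: AGGACAAGCTGT
Tdo2, 15.5 kb upstream, half-site: ATGACAGGAACA
The GRE match 15.5 kb upstream of Tdo2 contains the same 9 letters, ACAAGCTGT, that are in capitals in the Tdo2 promoter.

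Sds had the largest RNA rise of the 9 members in both responses. It lies on the minus strand of rn6 chr12:41620393-41627741. RNA levels were 302, 254 and 268 CPM in PULS CORT and 47.3, 41.5 and 12.03 CPM in PULS VEH, and 532, 875 and 887 CPM in CONS CORT and 19.8, 47.8 and 66.4 CPM in CONS VEH. No CORT library overlapped a vehicle library. The change was 3.02 ± 0.41 (log2, SE, n = 3 and 3, edgeR adjusted p = 0.000452) with PULS and 4.11 ± 0.42 (edgeR adjusted p = 8.74e-06) with CONS, that is 8.13-fold and 17.3-fold. The 3 CONS CORT libraries were all higher than the 3 PULS CORT libraries (1.48 ± 0.38, edgeR adjusted p = 0.0778), which missed the threshold in the fit of all 12 libraries and passed it when only those 6 were fitted (edgeR adjusted p = 0.00277). The difference between the responses was 1.089 ± 0.55 (edgeR adjusted p = 0.434).

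Elongating polymerase on Sds followed the pulse. The pSer2 Pol2 log2 values were 11.16 and 10.56 at PEAK_140, 7.93 and 7.49 at NADIR_180, 10.11 and 9.80 at CONS_140, 9.82 and 9.41 at CONS_180, and 7.75 and 7.09 in VEH. NADIR_180 overlapped VEH, and the libraries of the other 3 groups lay above both. The change from VEH was 3.44 ± 0.36 at PEAK_140 (limma adjusted p = 0.0014), 2.54 ± 0.36 at CONS_140 (limma adjusted p = 0.00741), 2.20 ± 0.36 at CONS_180 (limma adjusted p = 0.042) and 0.29 ± 0.36 at NADIR_180 (limma adjusted p = 0.99955). PEAK_140 exceeded NADIR_180 by 3.15 ± 0.36 (limma adjusted p = 0.00301). CONS_180 minus NADIR_180 was 1.91 ± 0.36 (limma adjusted p = 0.0963, and 0.0356 with the replicate block), and the time by pattern difference was 2.82 ± 0.50 (limma adjusted p = 0.0841, and 0.04 with the replicate block). The call at CONS_140 held in 6 of 10 fits that left out 1 library (limma adjusted p up to 0.138), and that of PEAK_140 against NADIR_180 in 8 of 10 (up to 0.102). The call at CONS_180 was lost without any 1 of the 10 libraries (limma adjusted p 0.0698 to 0.477). The region of a shorter Sds transcript, starting at 41625403, rose by 3.15 ± 0.35 at PEAK_140 and by 2.11 ± 0.35 at CONS_140 (limma adjusted p = 0.00198 and 0.017), and its value at CONS_180 was 1.68 ± 0.35 above VEH (limma adjusted p = 0.13).

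GR near Sds lay at its promoter, at 2.02 and 4.92 kb upstream, at the Sdsl promoter 8.64 kb upstream and in an intron (intron 2 of 15, nearest gene Slc8b1) 43.4 kb downstream. The region 4.92 kb upstream (rn6 chr12:41632347-41632972, intergenic) held the highest PEAK_140 values of the 15 regions, 6.50 and 6.45, against 2.67 and -0.23 at NADIR_180, 5.78 and 4.75 at CONS_140, 5.19 and 5.25 at CONS_180, and 1.45 and -0.68 in VEH. It was called against VEH at PEAK_140 (6.09 ± 0.997, limma adjusted p = 0.000651) and at both CONS times, and its time by pattern difference was 5.21 ± 1.41 (limma adjusted p = 0.021). The time by pattern call held in 5 of 10 fits that each left out 1 library (log2 3.75 to 6.66). At 2.02 kb upstream (rn6 chr12:41629564-41629959, intergenic) the values were 3.48 and 4.06 at PEAK_140, -0.99 and -0.84 at NADIR_180, 2.19 and -1.16 at CONS_140, 1.72 and 2.54 at CONS_180, and -1.05 and -1.20 in VEH. Both NADIR_180 libraries lay less than 1 log2 unit above VEH, and the time by pattern difference was 6.30 ± 1.48 (limma adjusted p = 0.0137). The promoter region (rn6 chr12:41627584-41628209) had 0.84 and 4.53 at PEAK_140 and 2.14 and -0.996 in VEH, so that the groups overlapped and no comparison with VEH was called, while PEAK_140 exceeded NADIR_180 by 3.37 ± 1.31 (limma adjusted p = 0.0444). That call was lost under 8 of 16 alternative settings, among them without PEAK_140 replicate 2 (1.53, limma adjusted p = 0.305), without either NADIR_180 library and without any 1 of the CONS libraries, and after the median of each library was subtracted the difference was -0.06 (limma adjusted p = 0.984). In the region nearest Slc8b1 (rn6 chr12:41584142-41584537) GR was called against VEH at PEAK_140 (4.27 ± 0.92, limma adjusted p = 0.00266), at CONS_140 and at CONS_180.

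Sdsl had little signal. Its RNA was 9.62, 9.89 and 11.2 CPM in PULS CORT against 6.70, 6.23 and 6.02 CPM in PULS VEH, and 5.89, 10.8 and 8.24 CPM in CONS CORT against 7.45, 6.83 and 7.06 CPM in CONS VEH, from 29 to 77 reads per library. The PULS groups did not overlap, but the change of 0.69 ± 0.21 missed the threshold (edgeR adjusted p = 0.0725). The pSer2 Pol2 values of Sdsl lay between 3.26 and 4.02, with 5 of the 10 libraries within 0.01 of the lowest. They were the lowest of the 9 members, though above the library medians over all regions (2.36 to 2.84). Values appear drawn together where tags are few, so a small difference was not detectable. GR at the Sdsl promoter (rn6 chr12:41636072-41636697), 0.61 kb upstream of its TSS, was 3.90 and 3.87 at PEAK_140, 1.76 and -0.74 at NADIR_180, 2.79 and -1.06 at CONS_140, 1.20 and 3.01 at CONS_180, and -0.95 and -1.12 in VEH. PEAK_140 was the group with both libraries high, and GR was called there against VEH (4.93 ± 1.32, limma adjusted p = 0.00809) and against NADIR_180 (3.38 ± 1.32, limma adjusted p = 0.0465, and 0.0518 with the replicate block). The call against NADIR_180 held in only 3 of 10 fits that each left out 1 library (log2 2.13 to 4.63). After the median of each library was subtracted, that difference was -0.06.

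Of 16 other genes of serine, glycine and threonine metabolism, 14 were tested in RNA, 0 were called with PULS and 1 with CONS, Cbs (cystathionine beta-synthase, which joins serine to homocysteine). Over all genes, 4.23% were called with PULS and 9.2% with CONS. Cbs rose by 0.71 ± 0.11 with CONS (edgeR adjusted p = 0.000391). With PULS its difference was 0.56 ± 0.11 (edgeR adjusted p = 0.00782), under 1.5-fold. The list medians were 0.05 with PULS and -0.25 with CONS, against -0.01 and -0.01 over all genes. In pSer2 Pol2 none of the 14 tested was called in any of the 9 comparisons.

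Hal lost polymerase at the pulse peak, while its RNA at 180 min passed no test. On the plus strand of rn6 chr7:34326087-34336087, pSer2 Pol2 was 6.13 and 6.26 at PEAK_140, 8.87 and 8.85 at NADIR_180, 8.81 and 8.21 at CONS_140, 8.18 and 7.89 at CONS_180, and 8.67 and 8.42 in VEH. The PEAK_140 libraries lay below all others by more than 1 log2 unit. Hal fell at PEAK_140 against VEH (-2.35 ± 0.32, limma adjusted p = 0.00611) and against NADIR_180 (-2.66 ± 0.32, limma adjusted p = 0.00441), and its time by pattern difference was -3.14 ± 0.46 (limma adjusted p = 0.0439, and 0.042 with the replicate block). PEAK_140 minus CONS_140 was -2.31 ± 0.32 (limma adjusted p = 0.0532, and 0.0325 with the replicate block). The call against VEH held in 5 of 10 fits that each left out 1 library (limma adjusted p up to 0.0736, lost without PEAK_140 replicate 1 and without either NADIR_180 or VEH library), and that against NADIR_180 in 8 of 10 (up to 0.12). The time by pattern call was lost without 9 of the 10 libraries in turn (limma adjusted p up to 0.457). RNA at 180 min was 246, 220 and 227 CPM in PULS CORT and 264, 202 and 187 CPM in PULS VEH (0.08 ± 0.16, edgeR adjusted p = 0.84), and 250.2, 381 and 361 CPM in CONS CORT and 286, 294 and 359 CPM in CONS VEH (0.08 ± 0.16, edgeR adjusted p = 0.82).

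The single GR region near Hal lay in its last intron, intron 19 of 19, 29.9 kb downstream of the TSS (rn6 chr7:34355692-34356381). GR values were 2.54 and 3.89 at PEAK_140, 1.98 and 0.98 at NADIR_180, 3.93 and 4.38 at CONS_140, 3.68 and 4.17 at CONS_180, and 1.42 and -0.79 in VEH. The CONS groups lay at or above the higher PEAK_140 library except for 1 library, and GR was called against VEH at PEAK_140 (2.90 ± 0.86, limma adjusted p = 0.0127), CONS_140 (3.84 ± 0.86, limma adjusted p = 0.0041) and CONS_180 (3.61 ± 0.86, limma adjusted p = 0.00583). The PEAK_140 call was lost without VEH replicate 2 (1.80, limma adjusted p = 0.0999).

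Amdhd1, the enzyme that acts after Uroc1 on the histidine route, starts 80.2 kb from Hal on the opposite strand (rn6 chr7:34396318-34406318). Its pSer2 Pol2 values were 4.71 and 5.32 at PEAK_140 and 6.92 to 7.63 in the other 8 libraries. It too fell at PEAK_140 against VEH (-2.30 ± 0.35, limma adjusted p = 0.00974) and against NADIR_180 (-2.45 ± 0.35, limma adjusted p = 0.00994), with a time by pattern difference of -2.86 ± 0.49 (limma adjusted p = 0.0667). The RNA difference of Amdhd1 was 0.07 ± 0.20 with PULS and 0.19 ± 0.18 with CONS (edgeR adjusted p = 0.896 and 0.594). Amdhd1 was the only gene called among 8 others of histidine and folate one-carbon metabolism, of which 8 were tested in RNA and 6 in pSer2 Pol2. Over all genes, 1.01% had a region called at PEAK_140 against VEH and 0.507% at PEAK_140 against NADIR_180. The median of those 6 at PEAK_140 against VEH was -0.82, with each gene taken at its region of lowest limma p. The median over all regions, taken without such a choice, was -0.05, so the values are not like measures.

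Uroc1 and Ftcd were called in no pSer2 Pol2 comparison and in no RNA comparison with edgeR. The pSer2 Pol2 values of Uroc1 (rn6 chr4:122244711-122254711, plus strand) ran from 6.47 to 7.99 with every group overlapping VEH. Its RNA was 293, 336 and 341 CPM in PULS CORT and 225, 214 and 249 CPM in PULS VEH, without overlap, a change of 0.49 ± 0.13 (edgeR adjusted p = 0.0374) that was under 1.5-fold and so was not called. With CONS the values were 268, 264 and 291 CPM against 246, 325 and 344 CPM, a change of -0.15 ± 0.13 (edgeR adjusted p = 0.532). The difference between the responses was -0.65 ± 0.19 (edgeR adjusted p = 0.149, DESeq2 adjusted p = 0.0288, and edgeR adjusted p = 0.025 without CONS VEH replicate 1). GR at the Uroc1 promoter (rn6 chr4:122243939-122244334) had 1 PEAK_140 library at 3.49 and the other at -0.60, and was called in no comparison.

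Ftcd (rn6 chr20:12810466-12820466, minus strand) had a GR region inside the gene. This region in exon 3 of 14, 1.78 kb downstream of the TSS (rn6 chr20:12818370-12819011), had GR values of 4.86 and 5.24 at PEAK_140, 1.53 and 1.74 at NADIR_180, 5.42 and 5.34 at CONS_140, 4.32 and 4.91 at CONS_180, and 0.73 and -0.73 in VEH. NADIR_180 lay above VEH and below all 6 other CORT libraries. Against VEH, GR rose by 5.05 ± 0.61 at PEAK_140 (limma adjusted p = 0.000151), 5.37 ± 0.61 at CONS_140 and 4.62 ± 0.61 at CONS_180, and its NADIR_180 difference was 1.63 ± 0.61 (limma adjusted p = 0.187). In addition the time by pattern difference was 2.66 ± 0.86 (limma adjusted p = 0.0371). That call held in only 4 of 10 fits that each left out 1 library (log2 2.36 to 2.95). The pSer2 Pol2 values of Ftcd were highest at CONS_140, 9.17 and 8.66 against 7.87 and 6.92 in VEH (1.52 ± 0.40, limma adjusted p = 0.19). Ftcd RNA was 295, 312 and 297 CPM in PULS CORT and 250.2, 223 and 231 CPM in PULS VEH (0.36 ± 0.11, edgeR adjusted p = 0.0744), and its difference with CONS was 0.06 ± 0.11 (edgeR adjusted p = 0.809).

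Tdo2 rose in RNA by nearly the same amount with both patterns. Levels were 2804, 2322 and 2429 CPM in PULS CORT and 558, 469 and 730.2 CPM in PULS VEH, and 3985, 2723 and 4025 CPM in CONS CORT and 589, 989 and 937 CPM in CONS VEH. No CORT library overlapped a vehicle library. The change was 2.10 ± 0.21 with PULS (edgeR adjusted p = 3.36e-05) and 2.09 ± 0.21 with CONS (edgeR adjusted p = 7.25e-06), and the difference between the responses was -0.01 ± 0.29 (edgeR adjusted p = 0.995). Sds and Tdo2 were called in both responses under each of 18 alternative settings.

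Polymerase on Tdo2 (rn6 chr2:180904940-180914940, minus strand) reached like values at PEAK_140 and CONS_140. The pSer2 Pol2 values were 11.90 and 12.15 at PEAK_140, 10.41 and 10.48 at NADIR_180, 12.04 and 11.996 at CONS_140, 11.39 and 11.74 at CONS_180, and 9.73 and 9.81 in VEH. Unlike Sds, both NADIR_180 libraries of Tdo2 lay above both VEH libraries, by 0.68 ± 0.23, which was not called (limma adjusted p = 0.99955). Tdo2 rose against VEH at PEAK_140 (2.25 ± 0.23, limma adjusted p = 0.0014), CONS_140 (2.25 ± 0.23, limma adjusted p = 0.00168) and CONS_180 (1.79 ± 0.23, limma adjusted p = 0.0113), and PEAK_140 exceeded NADIR_180 by 1.58 ± 0.23 (limma adjusted p = 0.013). With 1 library left out at a time, the CONS_180 call held in 4 of 10 fits (limma adjusted p up to 0.200, lost without either library of NADIR_180, CONS_180 or VEH) and that of PEAK_140 against NADIR_180 in 7 of 10 (up to 0.175). PEAK_140 minus CONS_140 was 0.01 ± 0.23 (limma adjusted p = 0.985), and CONS_180 minus NADIR_180 was 1.12 ± 0.23 (limma adjusted p = 0.202).

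At the Tdo2 promoter (rn6 chr2:180914768-180915393) GR was high in the 6 libraries of PEAK_140, CONS_140 and CONS_180 and low in the other 4. Values were 4.22 and 3.67 at PEAK_140, 3.88 and 4.27 at CONS_140, and 3.19 and 3.87 at CONS_180, but -0.77 and -0.61 at NADIR_180 and -0.84 and -1.01 in VEH. GR rose against VEH by 4.87 ± 0.61 at PEAK_140 (limma adjusted p = 0.000171), 5.002 ± 0.61 at CONS_140 and 4.45 ± 0.61 at CONS_180. Its NADIR_180 difference was 0.23 ± 0.61 (limma adjusted p = 0.941), with a time by pattern difference of 4.09 ± 0.86 (limma adjusted p = 0.00999). The region 7.35 kb upstream (rn6 chr2:180921982-180922607, in an intron, nearest gene AABR07011997.1) was called against VEH at PEAK_140, CONS_140 and CONS_180, but 1 NADIR_180 library read 3.96 and the other -0.49. The regions at 10.9 and 15.5 kb upstream each had 1 PEAK_140 library high (4.17 and 5.87) and the other below 0 (-0.48 and -0.44), and were not called there. At 15.5 kb both NADIR_180 libraries (2.56 and 3.99) lay above VEH (-0.89 and -1.08), by 4.26 ± 2.03, which was not called (limma adjusted p = 0.354). At 10.9 kb GR was called against VEH at CONS_180 (4.50 ± 1.49, limma adjusted p = 0.0251). At 20.9 kb upstream, by the promoter of Asic5, GR was called at PEAK_140 (3.77 ± 1.16, limma adjusted p = 0.0151) and CONS_180.

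Kmo moved the other way from Tdo2 although it acts on the same route. Its RNA was 217, 255 and 250.1 CPM in PULS CORT and 278, 341 and 282 CPM in PULS VEH, and 244, 242 and 241 CPM in CONS CORT and 345, 343 and 416 CPM in CONS VEH. Both CORT groups lay below their vehicle groups without overlap. The fall was called with CONS (-0.60 ± 0.12, edgeR adjusted p = 0.00322) and was not with PULS (-0.32 ± 0.12, edgeR adjusted p = 0.143), and the difference between the responses was -0.28 ± 0.17 (edgeR adjusted p = 0.526). Without CONS VEH replicate 3 the CONS change was -0.50, under 1.5-fold (edgeR adjusted p = 0.0204). The pSer2 Pol2 values of Kmo (rn6 chr13:93684437-93694437, plus strand) were 4.30 and 4.36 at PEAK_140, 6.75 and 6.45 at NADIR_180, 5.78 and 4.49 at CONS_140, 5.49 and 4.94 at CONS_180, and 6.76 and 6.23 in VEH. All PEAK_140 and CONS libraries lay below all NADIR_180 and VEH libraries. Kmo fell at PEAK_140 against VEH (-2.16 ± 0.43, limma adjusted p = 0.0407), a call lost without any 1 of the 10 libraries (limma adjusted p 0.0634 to 0.443). PEAK_140 minus NADIR_180 was -2.27 ± 0.43 (limma adjusted p = 0.052, and 0.0376 with the replicate block).

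Kynu was called in no comparison, and CONS_180 was its highest group in pSer2 Pol2. On the plus strand of rn6 chr3:28416954-28426954, pSer2 Pol2 was 9.02 and 8.998 at CONS_180, 7.79 and 7.58 at NADIR_180, 7.56 and 7.98 at PEAK_140, 8.13 and 8.21 at CONS_140, and 8.78 and 8.42 in VEH. The CONS_180 libraries were the highest and all 4 PULS libraries lay below VEH. CONS_180 minus NADIR_180 was 1.33 ± 0.31 (limma adjusted p = 0.301). Kynu RNA was 899, 1368 and 1374 CPM in PULS CORT and 1029, 710 and 657 CPM in PULS VEH (0.60 ± 0.23, edgeR adjusted p = 0.153), and 838, 1742 and 1132 CPM in CONS CORT and 1011, 860 and 1006 CPM in CONS VEH (0.37 ± 0.23, edgeR adjusted p = 0.363), with both pairs of groups overlapping.

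Of 14 other genes of the tryptophan and kynurenine routes, 12 were tested in RNA. With CONS, 1 rose and 2 fell (9.2% of all genes were called), and with PULS none was called (4.23% of all genes). Acmsd, which draws the route away from NAD synthesis, rose with CONS (0.73 ± 0.19, edgeR adjusted p = 0.0168) and its difference with PULS was 0.67 ± 0.21 (edgeR adjusted p = 0.0693). Ido2, an alternative opener of the tryptophan ring, fell with CONS (-1.13 ± 0.15, edgeR adjusted p = 6.98e-05), from 21.9 to 27.6 CPM in CONS VEH to 10.8 to 12.4 CPM in CONS CORT. Ddc, which decarboxylates aromatic amino acids, fell with CONS by 0.998 on the log2 scale (SE 0.17, edgeR adjusted p = 0.00103). The list medians were 0.13 with PULS and -0.22 with CONS, against -0.01 and -0.01 over all genes. No gene of the list was called in pSer2 Pol2.

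Hpd (rn6 chr12:38828444-38838444, plus strand) was called in no pSer2 Pol2 comparison and in no RNA comparison with edgeR, and had a called GR region close to its TSS. Its RNA was 2172, 2396 and 2346 CPM in PULS CORT and 1645, 1662 and 1650.1 CPM in PULS VEH, without overlap, a change of 0.48 ± 0.14 (edgeR adjusted p = 0.0583). With CONS the values were 2417, 1935 and 2658 CPM against 2036, 2794 and 2623 CPM, and the change was -0.09 ± 0.14 (edgeR adjusted p = 0.762). The CONS VEH level exceeded that of PULS VEH by 0.59 ± 0.14 (edgeR adjusted p = 0.278, DESeq2 adjusted p = 0.00633, and edgeR adjusted p = 0.0461 without CONS VEH replicate 1). The pSer2 Pol2 values of Hpd ran from 9.87 to 11.22, with PEAK_140 (10.03 and 9.87) the lowest, and no comparison was called.

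GR 2.07 kb upstream of Hpd (rn6 chr12:38826057-38826695, intergenic) was 4.19 and 3.73 at PEAK_140, 2.31 and -0.49 at NADIR_180, 4.51 and 4.33 at CONS_140, 3.60 and 3.70 at CONS_180, and -0.71 and -0.89 in VEH. The PEAK_140 and CONS libraries all lay above NADIR_180 and VEH. The change from VEH was 4.76 ± 0.87 at PEAK_140 (limma adjusted p = 0.00113), 5.22 ± 0.87 at CONS_140 and 4.45 ± 0.87 at CONS_180. Without NADIR_180 replicate 2 the change at NADIR_180 was 3.11 (limma adjusted p = 0.00715), where with both libraries it was 1.71 ± 0.87 (limma adjusted p = 0.374). The region 47.5 kb downstream was called in no comparison.

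The 9 other genes of phenylalanine and tyrosine breakdown were all tested in RNA, and most were called in neither response. The list medians were 0.21 with PULS and -0.18 with CONS, against -0.01 and -0.01 over all genes. Tat (tyrosine aminotransferase) makes the substrate of Hpd and is another classical glucocorticoid-induced enzyme. It rose by 1.41 ± 0.29 with PULS (edgeR adjusted p = 0.0106) and 1.82 ± 0.30 with CONS (edgeR adjusted p = 0.000631). In pSer2 Pol2, Tat was higher at PEAK_140 than at NADIR_180 (1.28 ± 0.20, limma adjusted p = 0.016) and at CONS_180 than at NADIR_180 (1.27 ± 0.20, limma adjusted p = 0.0347), but was not called against VEH at any group, with 0.56 ± 0.20 at PEAK_140 and -0.72 ± 0.20 at NADIR_180.

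**Figure D4:**
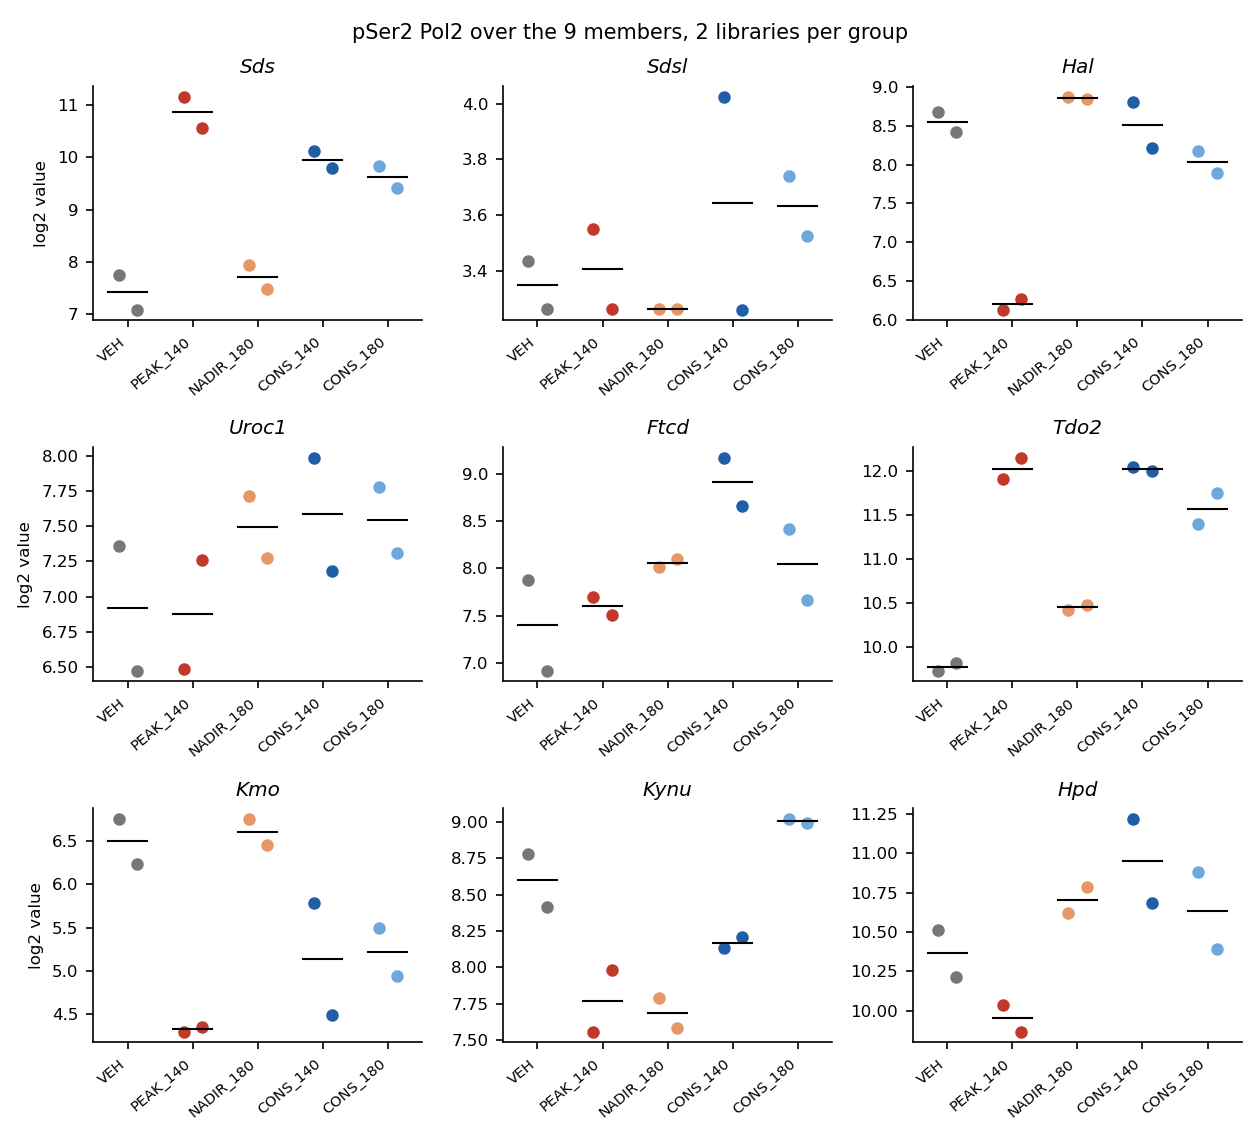
pSer2 Pol2 log2 value of each of the 9 members in the 5 ChIP groups. Points are libraries (2 per group), lines are means, and each panel has its own axis, which does not start at 0. Sds and Tdo2 are high at PEAK_140, CONS_140 and CONS_180, and Hal (6.13 and 6.26) and Kmo (4.30 and 4.36) are low at PEAK_140.

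The genes most like the 3 members with the smallest RNA p were taken from all 14092 tested genes by Pearson's r of log2 CPM over the 12 libraries, as a description. For Sds these were Cps1 (r = 0.984), Atp6v1h (0.977) and Mat1a (0.972). For Tdo2 they were Mat1a (0.978), Akr1c14 (0.977) and Edem1 (0.976). For Kmo they were AABR07064873.1 (0.935), Sgpl1 (0.916) and Cyp2a1 (0.904). The 12 points share the same 4 groups, and the values carry no p.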

How the data were processed

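The authors deposited exonic read counts per gene for RNA-Seq (featureCounts 1.6.2, assembly Rnor_6.0) and log2 values per region and library for GR and pSer2 Pol2 ChIP-Seq. For ChIP, per the labels and the methods of the study, the authors trimmed reads with Trimmomatic 0.36, aligned them to rn6 with bowtie2, removed duplicates, called peaks over 1% input with HOMER 4.9.1 and subtracted input tags. The file headers call these deposited columns tag counts, but the values are not whole and go below 0, so they were read as log2 values (a scale inferred from the values), and they appear drawn together where tags are few. pSer2 Pol2 regions end at most 10 kb from the TSS. The deposited GR table also marks in which group each region was a peak. Columns with the authors' own fold changes and p-values were not used.

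Each assay was fitted across all its features with group means and all libraries. RNA counts used edgeR 4.0.16 (TMM, quasi-likelihood test, a sum above 10 reads across 12 libraries required), and CPM values use the TMM library sizes. ChIP values used limma 3.58.1 with a variance trend. pSer2 Pol2 counts per gene take a gene as called if any of its regions was. P-values were Benjamini-Hochberg adjusted over all features. A member's pSer2 Pol2 level is that of its gene-level region. The time by pattern difference is PEAK_140 minus NADIR_180, less CONS_140 minus CONS_180. R 4.3.3 and DESeq2 1.42.0 were also used. The edgeR, DESeq2 and limma fits were tested on simulated data for PULS CORT against PULS VEH or PEAK_140 against VEH. Fits with the replicate block and differences between patterns were not simulated.

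Nothing in the labels says that RNA libraries of a group came from separate rats, so p-values measure the spread between these libraries, and each pool of 6 rats is 1 ChIP library. No 2 RNA libraries of the same group agreed within sampling noise (chi-square per degree of freedom of 5.13 to 27.1). ChIP libraries were not tested against sampling noise. The labels state no pairing. Deviations of same-numbered pSer2 Pol2 CORT libraries from their group means correlated at 0.155 to 0.553 in all 12 pairs, while VEH libraries carry no number. With 2 libraries per group the 2 deviations mirror each other, so each of these values is counted 2 times. The pSer2 Pol2 block rests on this, and whether those libraries were paired cannot be told from the correlations. In GR (-0.027 to 0.072) and RNA (-0.049 to 0.081) same-numbered libraries showed no such correlation. All 9 members and the 3 GR regions nearest each TSS were described, other pathway genes were named where called (1 result of these lists is not reported here), and the members and lists were chosen with earlier results of these data known.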

Additional observations from a re-analysis of the deposited data

Results flagged for a closer look

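The change with time differed between the infusion patterns, by a test of the difference itself, in 5 of the results. In pSer2 Pol2 this was Hal, at -3.14 on the log2 scale (limma adjusted p = 0.0439), where the 2 PEAK_140 libraries lay below the other 8. The Hal call held in only 1 of 10 fits that each left out 1 library (log2 -3.44 to -2.84), and was lost when only the 8 CORT libraries were fitted. In GR it was the region 2.02 kb upstream of Sds at 6.30, the region 4.92 kb upstream of Sds at 5.21, the Tdo2 promoter at 4.09 and the region in exon 3 of Ftcd at 2.66. Such a difference was called at 44% of all GR regions, with a median of 3.11 over all of them, and the Ftcd value lay below that median. These GR regions were peaks at PEAK_140 and not at NADIR_180. Their time by pattern differences are thus not independent of how regions entered the table, and are a description.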

How the results depend on the processing

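The fit of the 8 CORT libraries with no block was chosen after seeing the data. In RNA the replicate block changed no call. DESeq2 called 1 member in the response difference and 1 in CONS VEH against PULS VEH, and CONS CORT against PULS CORT gave 1 without the read filter and 1 when only the groups compared were fitted. Leaving out each library in turn gave 2 to 3 members with PULS, 2 to 3 with CONS, and 0 to 1 in each of the other 3 RNA comparisons. The 1 was Uroc1 and Hpd without CONS VEH replicate 1, and Sds without CONS VEH replicate 1 or PULS VEH replicate 3. The Kmo call with CONS was lost without CONS VEH replicate 3.

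In pSer2 Pol2, fitting only the groups compared gave 0 members at PEAK_140, CONS_140 and CONS_180 against VEH and 0 for PEAK_140 against NADIR_180. Without a variance trend, CONS_180 gave 1 and PEAK_140 against CONS_140 gave 1. For PEAK_140 against CONS_140, CONS_180 against NADIR_180 and the time by pattern difference in that order, centring each library on its median gave 1, 1 and 2, the regions above the median mean value 2, 2 and 3, and the replicate block 1, 1 and 2. With only the 8 CORT libraries the last gave 0, and 0 with no block. Leaving out 1 library gave 0 to 3 members at PEAK_140, 0 at NADIR_180, 0 to 5 at CONS_140, 0 to 1 at CONS_180, 0 to 3 for PEAK_140 against NADIR_180, 0 to 1 for CONS_140 against CONS_180, 0 to 5 for PEAK_140 against CONS_140, 0 for CONS_180 against NADIR_180 and 0 to 5 for time by pattern. The 5 came without CONS_140 replicate 2, where 5669 regions were called at CONS_140. PEAK_140 against NADIR_180 gave 0 without PEAK_140 replicate 1 and 0 without NADIR_180 replicate 1.

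In GR, centring each library on its median gave 0 called regions at PEAK_140, CONS_140 and CONS_180, 0 for PEAK_140 and 0 for CONS_180 against NADIR_180, and 0 for time by pattern, since that setting removes a shift shared by most regions. The regions above the median mean value held 5 called at PEAK_140, 5 at CONS_180, 3 for PEAK_140 against NADIR_180, 4 for CONS_180 against NADIR_180 and 2 for time by pattern, from fewer regions tested. Only the groups compared gave 4 for CONS_180 against NADIR_180. Centring turned 18 values negative. At PEAK_140 these were -1.72 near Hal, -0.35 at 43.4 kb from Sds and -0.85 at 20.9 kb from Tdo2. At CONS_140 they were -0.27 near Hal and -1.37 at 43.4 kb from Sds. At CONS_180 they were -0.45 near Hal, -0.80 at 2.02 kb and -1.21 at 43.4 kb from Sds, and -0.047 at 7.35 kb and -0.78 at 20.9 kb from Tdo2. For PEAK_140 against NADIR_180 they were -0.022 in Ftcd, -0.39 at 2.07 kb from Hpd, -0.063 at the Sds promoter, -0.061 at the Sdsl promoter and -0.77 at 43.4 kb from Sds. For CONS_180 against NADIR_180 they were -0.44 near Hal and -0.14 at 2.07 kb from Hpd, and for time by pattern -0.73 in Ftcd. Leaving out 1 library gave 9 to 11 regions at PEAK_140, 0 to 2 at NADIR_180, 5 to 10 at CONS_140, 5 to 11 at CONS_180, 5 to 8 for PEAK_140 against NADIR_180, 0 for CONS_140 against CONS_180, 0 to 3 for PEAK_140 against CONS_140, 2 to 7 for CONS_180 against NADIR_180 and 2 to 8 for time by pattern. With 2 libraries per ChIP group and low tags at Sdsl, small differences were not detectable.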

Other observations

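Cps1 and Ass1, 2 genes of the urea cycle, which takes up the ammonia that amino acid breakdown releases, rose with both infusion patterns, and the other enzymes of the cycle were not examined as a list. Cps1, which starts the cycle, was 12511, 12254 and 13270 CPM in PULS CORT against 7257, 6224 and 5929 CPM in PULS VEH (0.97 ± 0.14, edgeR adjusted p = 0.000722), and 14711, 15888 and 17529 CPM in CONS CORT against 5861, 7348 and 8000 CPM in CONS VEH (1.18 ± 0.14, edgeR adjusted p = 3.37e-05). Ass1, which joins citrulline and aspartate, rose by 1.18 with PULS (edgeR adjusted p = 9.18e-05) and 1.02 with CONS (edgeR adjusted p = 8.47e-05). Both were on the hepatocyte marker list and were picked out after their values were seen.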
